A study of Homo sapiens with 8 samples.

Results

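The genes described here encode the enzymes, carriers and electron acceptors of mitochondrial and peroxisomal fatty acid oxidation. They were taken by symbol from a list of β-oxidation enzymes, acyl-CoA synthetases and carnitine steps. The list has 35 genes, all 35 were found among the 18430 genes of the deposited table, and all 35 were among the 17445 genes that passed the filter on low counts. RNA was sequenced from HCE-T cells, an immortalized human corneal epithelial line, cultured for 7 days as a barrier in the upper channel of a microfluidic device and then kept for a day in 1 of 4 conditions. Cells of the static condition (ST) stayed under medium, and those of ST_DCF stayed under medium with 50 µM diclofenac (DCF), a non-steroidal anti-inflammatory drug. Cells of AL received the AL stimulus, repeated cycles of air and liquid through the channel that were meant to model evaporative dry eye, and those of AL_DCF received the same stimulus with 50 µM DCF. All 4 conditions shared the line, the device and a medium with serum, insulin, epithelial growth factor and dimethyl sulfoxide, so each condition is a state of a single line and not of corneas from several donors. Each condition had 2 libraries, described in the study's methods as independent biological samples.

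Fatty acid oxidation shortens acyl chains and passes their electrons to carriers. Acyl-CoA synthetases first activate a fatty acid, and the carnitine shuttle carries long chains across the inner mitochondrial membrane. Acyl-CoA dehydrogenases open each round and hand electrons to the electron transfer flavoprotein (ETF), which passes them to the respiratory chain. Hydration, another dehydrogenation and thiolysis then release acetyl-CoA. Peroxisomes shorten very long and branched chains with their own enzymes, and isomerases and reductases prepare unsaturated chains. Epithelial cells use these steps for energy and for remodelling membrane lipids.

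Library totals lay between 32880479 and 46369412 counts, and the 4 libraries with the AL stimulus were all deeper than the 4 static libraries. Of 15 markers of corneal epithelium, 11 were in the table. KRT12, KRT3, ALDH1A1 and KRT24 were not found in it by symbol, so their levels are not known here. The summed level of the 11, in counts-per-million (CPM), was 1005 to 1076 in ST and 1192 to 1253 in ST_DCF, against 482 to 486.7 in AL and 454.2 to 463.7 in AL_DCF. The labels' RNA extraction text speaks of myoblasts, although the labels give the cells as HCE-T. Of 14 muscle and myoblast markers 6 were in the table, with a summed level of 50.5 to 67.0 CPM over the 8 libraries. MYOD1, MYOG, MYF5, MYF6, PAX7, ACTA1, MYH2 and MYMK were not found in it by symbol. Of 8 fibroblast markers 5 were in the table, at 19.0 to 25.9 CPM in the static libraries, 30.9 to 75.1 in AL and 24.2 to 26.5 in AL_DCF, and 6 of 6 endothelial markers summed to 15.6 to 23.4 CPM in ST_DCF and 5.099 to 9.82 in the other libraries. Of 7 immune markers 3 were in the table, at 42.4 to 44.1 CPM in AL and 57.9 to 73.6 in the other libraries. The lower summed corneal markers and the greater depth moved with every AL comparison below, and the part of these marker and depth differences in the results was not tested.

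Per transcript length, the members spanned 3 orders of magnitude, as the plot of levels by library shows. Transcripts-per-million values (TPM) correct for transcript length and were used to compare levels between genes. ETFB, the beta subunit of ETF, was highest with a mean of 251.4 TPM over the 8 libraries. It was followed by ECHS1, the short-chain enoyl-CoA hydratase, at 222.1 TPM, ECI1, an enoyl-CoA isomerase, at 167.2 TPM, and ETFA, the alpha subunit of ETF, at 166.1 TPM. The 2 subunits of the mitochondrial trifunctional protein came next, HADHA at 159 TPM and HADHB at 144.1 TPM. HSD17B4, the peroxisomal D-bifunctional protein, had a mean of 107.1 TPM, far above its L-bifunctional counterpart EHHADH at 4.01 TPM. CPT1C, the brain isoform of carnitine palmitoyltransferase 1, was lowest at 0.209 TPM, with between 0.134 and 0.443 CPM per library and as few as 6 counts. It was the only member under 1 CPM in every library, and 32 of the 35 were above 10 CPM in every library. Replicates of a condition lay close together, with a median absolute difference between replicates over the members of 0.065 on the log2 scale in ST and 0.11 in ST_DCF, and of 0.098 in AL and 0.12 in AL_DCF. The widest replicate gap in ST_DCF, 0.42 on the log2 scale, belonged to ACSL5. Summed over the members, the level was 2021 and 1963 TPM in ST, 1961 and 2007 in ST_DCF, 2219 and 2239 in AL, and 2176 and 2234 in AL_DCF. The 4 libraries with the AL stimulus were thus above the 4 static ones. Abundant members weigh most in this sum. ETFA, for example, had a mean of 144.3 TPM in ST and 197.7 in AL, but of 106.5 and 126.3 in CPM. In AL against ST, 25 members had a positive and 10 a negative log2 fold change. Sums of other gene sets were not computed.

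**Figure D1:**
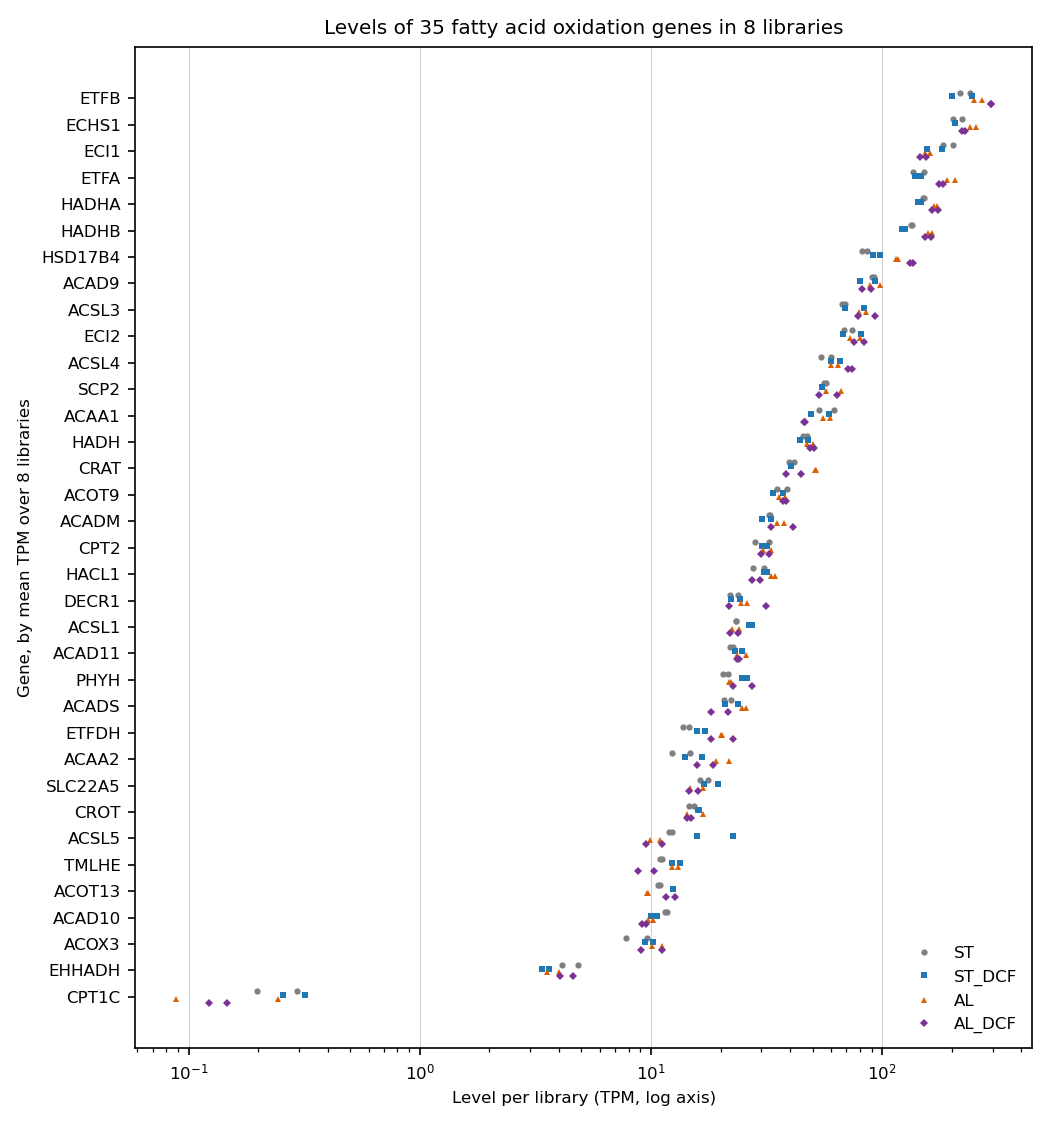
Level of each of the 35 genes in each of the 8 libraries, in TPM on a log axis, with genes ordered by their mean over the 8 libraries and marker shape and colour giving the condition. Levels run from ETFB (mean 251.4 TPM) to CPT1C (mean 0.209 TPM), and the spread between conditions of most genes is small beside the spread between genes.

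The AL stimulus without drug raised 5 of the 35 genes against ST, and none fell. These were HSD17B4, ETFDH (the ETF dehydrogenase that feeds electrons into the respiratory chain), ACAA2 (the mitochondrial 3-ketoacyl-CoA thiolase), CRAT (the carnitine acetyltransferase) and HADHB, by 1.23-fold to 1.52-fold. The genes called higher were 14.3% of the members, against 7.63% of all genes tested, and those called lower were 0%, against 10.3% of all genes tested. Tests were made with edgeR's quasi-likelihood method, and the calls given here are those with an adjusted p below 0.05. Both AL libraries were above both ST libraries for 19 members (54.3%, against 32.3% of all genes tested), and below them for 5 (14.3%, against 33.2%). At an unadjusted p under 0.05 there were 11 members, of either direction. For this and all later counts at an unadjusted p, the share of all genes tested was not computed. DESeq2 called 0 lower as well, and edgeR's exact test at an adjusted p under 0.05 called 1, ECI1. The median log2 fold change of the 35 was 0.11, with −0.00030 over all genes tested. The count of 5 came to 2 when ST replicate 1 or AL replicate 2 was left out, to 3 when ST replicate 2 or AL replicate 1 was, and to 8 when AL_DCF replicate 2 was. In bulk RNA, a change in the share of cells that express a gene and a change in its RNA per cell cannot be told apart. With 2 libraries a condition, an exact permutation test of a single gene cannot go below a two-sided p of 0.333, so the calls rest on the spread shared across genes.

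With DCF in the medium on both sides of the comparison, AL_DCF against ST_DCF, 6 members rose and 1 fell. HSD17B4, HADHB, ETFB, ACSL4, ETFDH and HADHA were higher, by 1.18-fold to 1.43-fold, and ACSL5, a long-chain acyl-CoA synthetase, was lower, at 0.546 of its ST_DCF level. The members called higher were 17.1%, against 9.38% of all genes tested, and those called lower 2.86%, against 11.4%. Both AL_DCF libraries were above both ST_DCF libraries for 10 members (28.6%, against 28% of all genes tested) and below them for 8 (22.9%, against 27.2%). The median log2 fold change of the members was 0.048, with 0.0077 over all genes. The count of 6 was 3 without ST replicate 1, ST_DCF replicate 1 or AL_DCF replicate 2, and the count of 1 was 3 without ST_DCF replicate 1. This comparison shares no library with AL against ST, and 3 genes, ETFDH, HADHB and HSD17B4, were called higher in both, which is 60% of the members called in AL against ST and 42.9% of those called in AL_DCF against ST_DCF. Over all genes tested, the genes called in both in the same direction were 59.1% and 51% of those called in each, so the overlap among the members was no larger than that among all genes.

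When the stimulus and the drug together were set against plain ST, 5 members rose and 2 fell. HSD17B4, ETFDH, ETFB, ACSL4 and ACSL3 were higher, and ECI1 and ACAD10, a member of the acyl-CoA dehydrogenase family, were lower. The members called higher were 14.3%, against 8.49% of all genes tested, and those called lower 5.71%, against 9.83%. Both AL_DCF libraries were above both ST libraries for 16 members (45.7%, against 30% of all genes) and below them for 8 (22.9%, against 30.2%). The median of the members was 0.040 and that of all genes −0.00030 on the log2 scale. The count of 5 was 1 without either ST library and 3 without either AL library or AL_DCF replicate 2, and the count of 2 was 0 without either ST or either AL_DCF library and 1 without either AL library. AL against ST and AL_DCF against ST share the ST libraries, so their values for a gene are not independent.

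DCF by itself changed no member past the threshold, either in static culture or under the stimulus. In ST_DCF against ST, 0 of 35 members were called by edgeR's quasi-likelihood test, against 0.00573% of all genes higher and 0% lower, with 2 members at an unadjusted p under 0.05. DESeq2 called 1 of them, ACSL5, and so did edgeR's exact test at an adjusted p under 0.05. Both ST_DCF libraries were above both ST libraries for 9 members (25.7%, against 21.3% of all genes) and below them for 7 (20%, against 21.6%). In AL_DCF against AL, 0 of 35 were called by edgeR's quasi-likelihood test, against 0.103% of all genes higher and 0.252% lower, with 7 members at an unadjusted p under 0.05 and 0 called by DESeq2 or by the exact test. Both AL_DCF libraries were above both AL libraries for 4 members (11.4%, against 23.4% of all genes) and below them for 11 (31.4%, against 20.7%), and the median log2 fold change was −0.060, with 0.0069 over all genes. The interaction of the stimulus with DCF, which tests whether the effect of AL differs with the drug, called 0 of 35 by the same edgeR test, against 0% of all genes higher and 0.0344% lower, with 6 members at an unadjusted p under 0.05. No difference in the response of a member to AL between the media with and without DCF was therefore called.

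**Figure D2:**
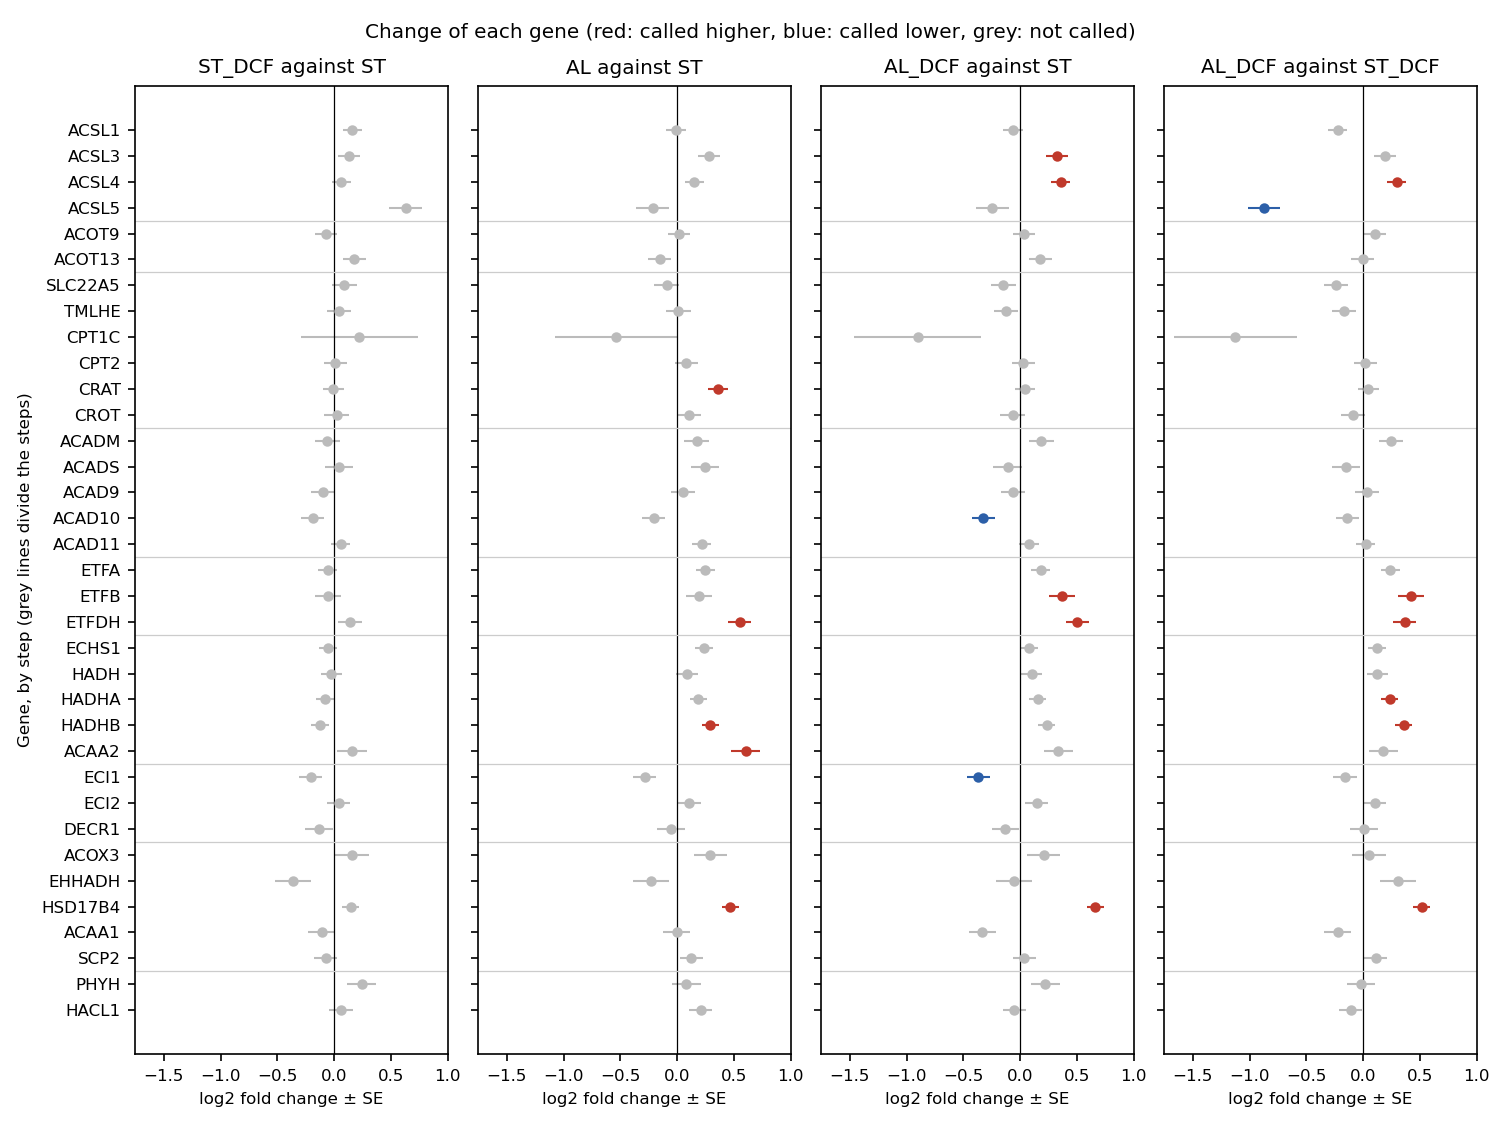
Log2 fold change of each gene with its standard error in 4 comparisons, with genes ordered by step and red or blue marking an adjusted p under 0.05. The red points are 5 in AL against ST, 5 in AL_DCF against ST and 6 in AL_DCF against ST_DCF, the blue points are 2 in AL_DCF against ST and 1 in AL_DCF against ST_DCF, and ST_DCF against ST has neither.

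Of the 35 members, 12 were called in some comparison (34.3%, close to the 30.6% of all genes tested) and 23 in none. The log2 fold changes of those 23 ran from −0.54 (CPT1C) to 0.29 (ACOX3) in AL against ST, from −0.90 (CPT1C) to 0.22 (PHYH) in AL_DCF against ST and from −1.12 (CPT1C) to 0.31 (EHHADH) in AL_DCF against ST_DCF. The spans of 24 members overlap that of another annotated gene, and the overlapping gene is named below where it was measured beside a called member.

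Among the 4 acyl-CoA synthetases, which activate fatty acids, 3 were called in some comparison, as were 30.6% of all genes tested. The 3 did not move in 1 direction. ACSL4 had 123 and 113.5 CPM in the ST libraries, 128.9 and 118 in ST_DCF, 135.4 and 127.3 in AL and 147.5 and 155.7 in AL_DCF. Both AL_DCF libraries exceeded the 6 others. ACSL4, which prefers arachidonate, rose in AL_DCF against ST by 0.36 ± 0.083 on the log2 scale (± SE, adjusted p = 0.012, edgeR's quasi-likelihood test) and against ST_DCF by 0.30 ± 0.083 (adjusted p = 0.026). In AL against ST its value was 0.15 ± 0.083 (adjusted p = 0.24), although both AL libraries were above both ST libraries. Leaving out either ST library ended the call against ST, with an adjusted p of 0.051 without replicate 1 and 0.15 without replicate 2. The call against ST_DCF was lost without ST replicate 1, ST_DCF replicate 2 or AL_DCF replicate 2, at an adjusted p of 0.056 to 0.10.

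ACSL3 had 168.5 and 162.4 CPM in the ST libraries, 192.2 and 170.1 in ST_DCF, 208.7 and 193.5 in AL and 188.3 and 226.1 in AL_DCF. The AL and AL_DCF libraries were all above both ST libraries, but ST_DCF replicate 1 exceeded AL_DCF replicate 1. ACSL3, a synthetase of the endoplasmic reticulum and of lipid droplets, rose in AL_DCF against ST by 0.32 ± 0.10 (adjusted p = 0.043, edgeR's quasi-likelihood test), and in AL against ST its value was 0.28 ± 0.10 (adjusted p = 0.076). The call was lost without either ST library, either AL library or AL_DCF replicate 2, with the adjusted p as high as 0.24 without ST replicate 2 or AL_DCF replicate 2.

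ACSL5, a synthetase of the outer mitochondrial membrane and the endoplasmic reticulum (chr10:112374116-112428376, GRCh38.p14), went the other way. ACSL5 had 17.7 and 18.3 CPM in the ST libraries, 31.8 and 23.8 in ST_DCF, 16.2 and 14.8 in AL and 13.9 and 16.5 in AL_DCF. The ST_DCF libraries were the highest of the 8 and both AL_DCF libraries lay below both ST libraries. It fell in AL_DCF against ST_DCF by 0.87 ± 0.14 on the log2 scale (adjusted p = 0.0014, edgeR's quasi-likelihood test), and the adjusted p stayed at or under 0.012 without each library in turn. Its value in ST_DCF against ST was 0.63 ± 0.14, the largest of any member in that comparison, with an adjusted p of 0.3. That value rested on a wide pair of ST_DCF libraries: it was 0.82 (adjusted p = 0.015) without ST_DCF replicate 2 and 0.41 (adjusted p = 0.77) without ST_DCF replicate 1. The interaction of the stimulus with DCF was −0.66 ± 0.20 (adjusted p = 0.3). ZDHHC6, a palmitoyltransferase gene whose span overlaps that of ACSL5 on chromosome 10, rose in AL_DCF against ST_DCF by 0.38 (adjusted p = 0.0044, edgeR's quasi-likelihood test), opposite to ACSL5. ACSL1, the remaining synthetase, was called in no comparison, at 38.5 and 39.1 CPM in ST, 42.9 and 43.8 in ST_DCF, 39.9 and 36.98 in AL and 35.6 and 38.6 in AL_DCF.

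Of the 6 genes of carnitine supply and of the shuttle, CRAT alone was called in some comparison, against 30.6% of all genes tested. CRAT had 49.04 and 50.3 CPM in the ST libraries, 47.7 and 51.2 in ST_DCF, 63.01 and 64.2 in AL and 54.9 and 47.3 in AL_DCF. Both AL libraries stood above the 6 others, and the AL_DCF libraries overlapped the ST ones. CRAT, which buffers acetyl-CoA as acetylcarnitine, rose in AL against ST by 0.36 ± 0.089 (adjusted p = 0.017, edgeR's quasi-likelihood test). Its value was 0.040 ± 0.089 in AL_DCF against ST (adjusted p = 0.8) and −0.32 ± 0.088 in AL_DCF against AL (adjusted p = 0.19). The interaction was −0.31 ± 0.13 (adjusted p = 0.4), so a difference in its response with and without DCF was not called. The call in AL was lost without any of the 4 libraries compared, at an adjusted p of 0.086 to 0.14. The inner transferase CPT2, the octanoyltransferase CROT, the carnitine transporter SLC22A5, the first enzyme of carnitine synthesis TMLHE and CPT1C were called in no comparison. Both AL_DCF libraries were below both ST_DCF libraries for 4 of the 6 genes of this step, against 27.2% of all genes tested, and the low-count CPT1C was among the 4. SLC22A5 had −0.24 ± 0.11 (adjusted p = 0.14) and TMLHE −0.17 ± 0.11 (adjusted p = 0.3). The log2 fold changes of CPT2, CROT, SLC22A5 and TMLHE against ST lay within −0.15 to 0.10 in the 3 conditions. CPT1C had log2 fold changes as far as −1.12 ± 0.54 in AL_DCF against ST_DCF (adjusted p = 0.17), a difference that was not detectable at its depth. The thioesterases ACOT9 and ACOT13, which release free fatty acids from acyl-CoA, were called in no comparison. ACOT13 had its largest value, 0.33 ± 0.10, in AL_DCF against AL (adjusted p = 0.21), where both AL_DCF libraries were above both AL libraries, and ACOT9 lay within −0.070 to 0.11 in every comparison.

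**Figure D3:**
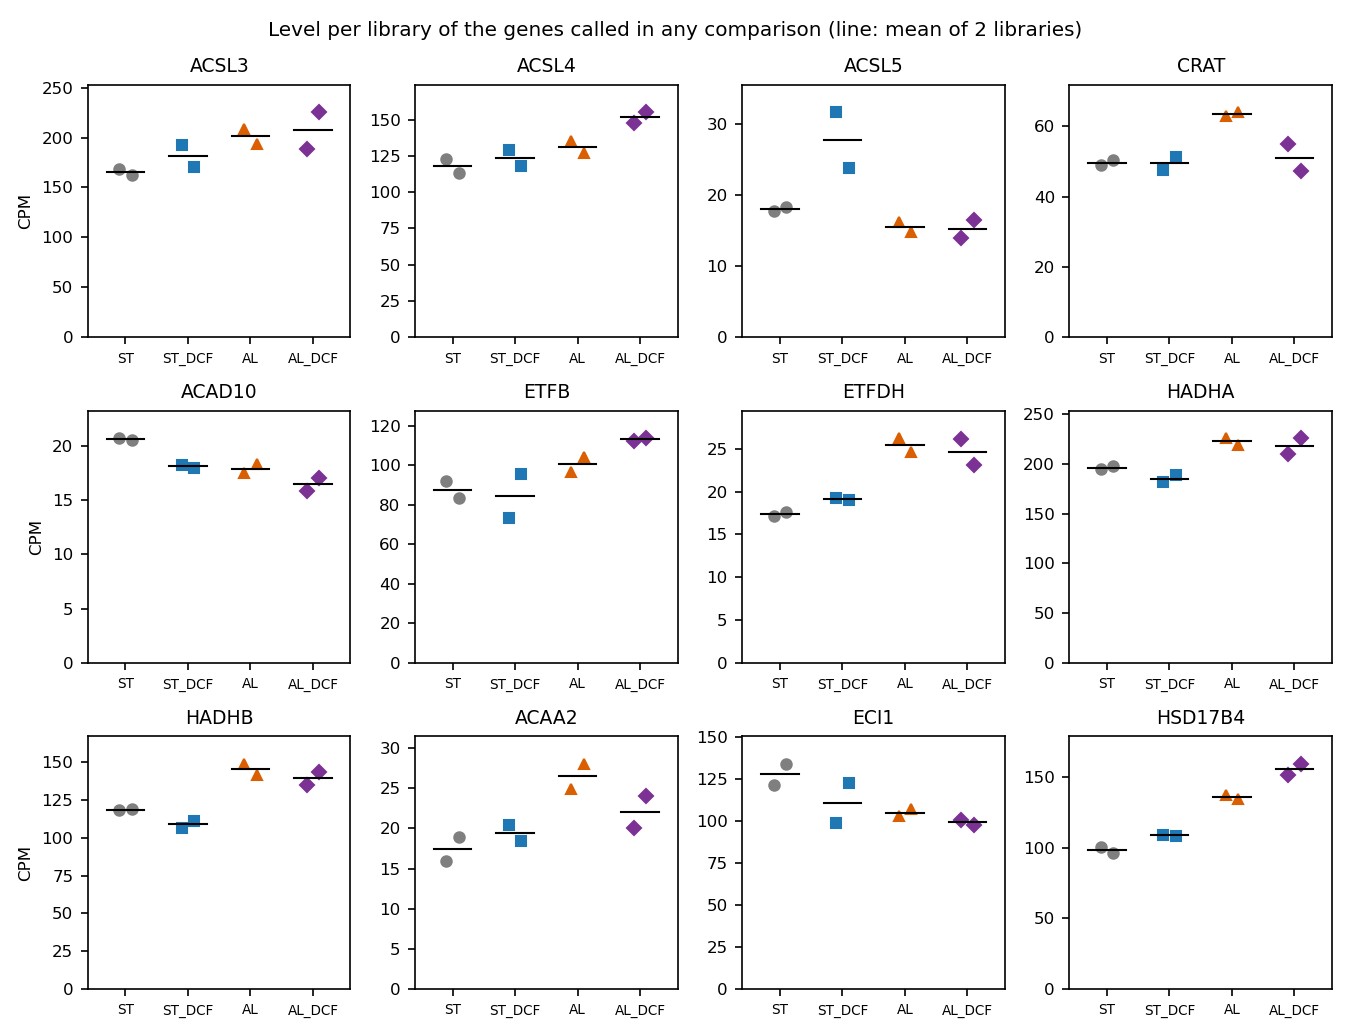
Level in CPM (linear axis from 0) of the 12 genes called in any comparison, with a point for each library and a line at the mean of the 2 libraries of a condition. HSD17B4, ETFDH, ETFB, HADHA and HADHB stand higher in all 4 libraries with the AL stimulus than in all 4 static libraries. The genes were chosen by calls between AL and static libraries, which favours such separation, and its share over all genes was not computed. ACSL5 is highest in ST_DCF.

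The acyl-CoA dehydrogenases that open each round of β-oxidation showed 1 call among 5 members, and it was a fall. Over all genes tested, 30.6% were called in some comparison. ACAD10 had 20.7 and 20.5 CPM in the ST libraries, 18.2 and 17.9 in ST_DCF, 17.5 and 18.3 in AL and 15.9 and 17.03 in AL_DCF. Both ST libraries were above the 6 others. ACAD10 fell in AL_DCF against ST by 0.33 ± 0.10 (adjusted p = 0.045, edgeR's quasi-likelihood test). The call was lost under 14 of 18 alternatives, with DESeq2 at an adjusted p of 0.063 among them, and without either library of ST, AL or AL_DCF the adjusted p was 0.061 to 0.20. ACADM, the medium-chain enzyme, had 33.04 and 32.96 CPM in ST, 38.2 and 36.2 in AL and 33.3 and 41.9 in AL_DCF, and its value in AL against ST was 0.17 ± 0.11 (adjusted p = 0.31). The short-chain enzyme ACADS had 0.24 ± 0.12 in AL against ST (adjusted p = 0.21) and −0.35 ± 0.12 in AL_DCF against AL (adjusted p = 0.27). ACAD11, a dehydrogenase of longer chains, had 0.22 ± 0.086 in AL against ST (adjusted p = 0.11), with both AL libraries above both ST libraries. ACAD9, which also assembles respiratory complex I, was among the most abundant members that were never called. ACAD9 had 101.5 and 99.9 CPM in the ST libraries, 84.4 and 104 in ST_DCF, 98.2 and 110.4 in AL and 101.6 and 91.1 in AL_DCF. Its libraries overlapped between all conditions.

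At the electron transfer step, every member had both AL libraries above both ST libraries. The same held for AL_DCF against ST and for AL_DCF against ST_DCF, so 3 of 3 genes were separated upwards in each of the 3 comparisons, against 32.3%, 30% and 28% of all genes tested, with medians of 0.25, 0.37 and 0.37 on the log2 scale, and no test of the step was made. ETFDH had 17.1 and 17.6 CPM in the ST libraries, 19.2 and 19 in ST_DCF, 26.3 and 24.6 in AL and 26.2 and 23.1 in AL_DCF. The 4 libraries with the AL stimulus were all above the 4 static libraries. ETFDH rose by 0.55 ± 0.10 in AL against ST (adjusted p = 0.0036, edgeR's quasi-likelihood test), by 0.50 ± 0.10 in AL_DCF against ST (adjusted p = 0.006) and by 0.37 ± 0.10 in AL_DCF against ST_DCF (adjusted p = 0.027). In AL against ST the adjusted p was at most 0.048 without each library in turn. The call in AL_DCF against ST was lost without ST replicate 1 (0.065) or replicate 2 (0.051), and that against ST_DCF without either ST library, either ST_DCF library or AL_DCF replicate 1, at an adjusted p of 0.051 to 0.12. ETFDH lies at chr4:158672296-158709623 (GRCh38.p14) and its span overlaps PPID, a cyclophilin gene, whose log2 fold changes were 0.042, 0.25 and −0.10 in the same 3 comparisons with no call.

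ETFB had 92.04 and 83.5 CPM in the ST libraries, 73.2 and 95.8 in ST_DCF, 96.8 and 104.3 in AL and 112.3 and 114.1 in AL_DCF. Both AL_DCF libraries were above the 6 others, and the ST_DCF libraries were wide apart. ETFB rose in AL_DCF against ST by 0.37 ± 0.11 (adjusted p = 0.044, edgeR's quasi-likelihood test) and against ST_DCF by 0.42 ± 0.11 (adjusted p = 0.022), while in AL against ST it had 0.20 ± 0.11 (adjusted p = 0.27). The call against ST was lost without either library of ST, AL or AL_DCF, at an adjusted p of 0.067 to 0.27. The call against ST_DCF was lost without ST_DCF replicate 1, at 0.12, or AL_DCF replicate 2, at 0.075. ETFA had 107.8 and 105.2 CPM in the ST libraries, 101.2 and 103.8 in ST_DCF, 127.5 and 125.2 in AL and 112.2 and 129.7 in AL_DCF. ETFA also had all 4 AL libraries above the 4 static ones, with 0.25 ± 0.084 in AL against ST (adjusted p = 0.065) and 0.24 ± 0.084 in AL_DCF against ST_DCF (adjusted p = 0.066), and was not called. DESeq2 called ETFA in both of these comparisons, at 0.26 and 0.24, and so did limma on log2(FPKM + 1), at 0.48 and 0.34.

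The 2 subunits of ETF are encoded on different chromosomes, ETFA on chromosome 15 and ETFB on chromosome 19. The protein needs both subunits, so 250 bases before an annotated start of each gene are shown. Only the RNA of ETFB was called by edgeR's quasi-likelihood test, and a difference between the 2 subunits was not tested. ETFA had 1 promoter window and ETFB had 2, and for ETFB the bases before the start of the second window are shown. The sequences are from RefSeq (GRCh38.p14) and read 5′ to 3′ on the gene's own strand, the minus strand for both, at chr15:76311470-76311719 and chr19:51366389-51366638. Capitals mark a CCAAT box, read as CCAAT or, on the other strand, as ATTGG.
ETFA upstream: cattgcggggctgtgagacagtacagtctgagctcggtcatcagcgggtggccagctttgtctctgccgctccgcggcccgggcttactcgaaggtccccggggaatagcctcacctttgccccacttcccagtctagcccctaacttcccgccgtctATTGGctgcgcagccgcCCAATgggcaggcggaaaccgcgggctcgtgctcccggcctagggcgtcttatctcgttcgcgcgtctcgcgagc
ETFB upstream: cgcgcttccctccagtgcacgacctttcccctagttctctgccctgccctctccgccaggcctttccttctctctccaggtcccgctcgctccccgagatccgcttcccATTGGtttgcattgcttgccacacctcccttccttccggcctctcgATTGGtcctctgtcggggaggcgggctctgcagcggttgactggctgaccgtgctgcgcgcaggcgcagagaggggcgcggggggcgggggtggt
Each stretch shown held 2 CCAAT boxes, while the window of ETFB that is not shown had no match. A CCAAT box was found in 10 of 41 promoter windows of the members (24.4%) and in 34.6% of all 35116 windows of the same length, so the motif is common and its presence is only a description.

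In the mitochondrial steps from hydration to thiolysis, 5 of 5 genes had both AL libraries above both ST libraries, against 32.3% of all genes tested, and the same 5 had both AL_DCF libraries above both ST libraries, against 30%. Against ST_DCF, 3 of the 5 did, against 28% of all genes tested. HADHB had 118.5 and 119.2 CPM in the ST libraries, 106.7 and 111.3 in ST_DCF, 149.3 and 142 in AL and 135.4 and 143.9 in AL_DCF. The 4 libraries with the AL stimulus were above the 4 static ones. HADHB, the thiolase subunit of the trifunctional protein, rose in AL against ST by 0.29 ± 0.076 (adjusted p = 0.02, edgeR's quasi-likelihood test), and also in AL_DCF against ST_DCF by 0.36 ± 0.076 (adjusted p = 0.0066). In AL_DCF against ST it had 0.23 ± 0.076 (adjusted p = 0.053). The call in AL against ST was lost without any of the 4 libraries compared, at an adjusted p of 0.076 to 0.16, whereas that against ST_DCF kept an adjusted p of at most 0.034 without each library in turn.

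HADHA had 194.3 and 197.5 CPM in the ST libraries, 181.6 and 188.9 in ST_DCF, 226.4 and 219 in AL and 210 and 226.3 in AL_DCF. The ranges of the AL and the static libraries again did not overlap. HADHA, the subunit with the hydratase and dehydrogenase activities, rose in AL_DCF against ST_DCF by 0.24 ± 0.076 (adjusted p = 0.047, edgeR's quasi-likelihood test), and had 0.19 ± 0.076 in AL against ST (adjusted p = 0.12). Its call was lost without 6 of the 8 libraries in turn, namely either ST library, either AL library, ST_DCF replicate 1 or AL_DCF replicate 2, at an adjusted p of 0.084 to 0.19. GAREM2, whose span overlaps that of HADHA, had −0.19 in AL_DCF against ST_DCF with no call. HADHA and HADHB are neighbours on chromosome 2 that are read away from each other, from start sites at 26244632 and 26244939 with 306 bases between them. The stretch that lies within the 250 bases before both starts is shown because the 2 genes share it. Whether it has a part in the changes of either gene was not tested. The stretch is the plus strand at chr2:26244689-26244882 (RefSeq, GRCh38.p14), with every CG in capitals.
HADHA and HADHB shared stretch: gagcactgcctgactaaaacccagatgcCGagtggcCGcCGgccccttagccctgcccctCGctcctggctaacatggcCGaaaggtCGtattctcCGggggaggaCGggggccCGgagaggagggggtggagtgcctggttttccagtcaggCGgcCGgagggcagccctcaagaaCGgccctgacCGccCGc
The 194 bases hold 14 CG dinucleotides and are 68.6% G and C.

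ACAA2 had 15.9 and 18.96 CPM in the ST libraries, 20.4 and 18.5 in ST_DCF, 24.9 and 28.1 in AL and 20.1 and 23.99 in AL_DCF. Both AL libraries were above the 6 others, and the ST_DCF libraries overlapped with those of ST and of AL_DCF. ACAA2, whose product cleaves the last bond of each round, rose in AL against ST by 0.60 ± 0.13 (adjusted p = 0.0075, edgeR's quasi-likelihood test), the largest rise of any member in that comparison. In AL_DCF against ST it had 0.34 ± 0.13 (adjusted p = 0.094). The call was lost without ST replicate 1 (0.10) or AL replicate 2 (0.085). ECHS1 had 126 and 116.3 CPM in the ST libraries, 113 and 121.1 in ST_DCF, 139.4 and 146.2 in AL and 127.7 and 127.7 in AL_DCF. ECHS1 had both AL libraries above the 6 others and 0.24 ± 0.079 in AL against ST (adjusted p = 0.059), which was not a call by edgeR's quasi-likelihood test but was one by DESeq2. HADH, the short-chain dehydrogenase of this step, was called in no comparison and had 0.085 ± 0.095 in AL against ST (adjusted p = 0.59).

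Among the auxiliary enzymes of unsaturated chains, ECI1 alone was called, and it was a fall. Over all genes tested, 30.6% were called in some comparison. ECI1 had 121.2 and 134 CPM in the ST libraries, 98.6 and 122.4 in ST_DCF, 102.6 and 106.8 in AL and 100.6 and 97.3 in AL_DCF. Both ST libraries were above both AL and both AL_DCF libraries, while the ST_DCF libraries spread across both ranges. ECI1 fell in AL_DCF against ST by 0.37 ± 0.10 (adjusted p = 0.028, edgeR's quasi-likelihood test) and had −0.29 ± 0.10 in AL against ST (adjusted p = 0.077). Against ST_DCF, its value in AL_DCF was −0.16 ± 0.10 (adjusted p = 0.31). The call was lost without either ST library, at 0.064 and 0.23, or either AL_DCF library, at 0.059 and 0.098. An antisense gene, ECI1-AS1, overlaps the span of ECI1, and no source used here says whether the counting used strand, so reads of the pair cannot be told apart. The isomerase ECI2 and the dienoyl-CoA reductase DECR1 were called in no comparison, with 0.11 ± 0.10 and −0.053 ± 0.12 in AL against ST.

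In the peroxisome, HSD17B4 (chr5:119452497-119542332, plus strand, GRCh38.p14) had the smallest adjusted p of any member in each of the 3 AL comparisons with a static condition. HSD17B4 had 100.4 and 95.9 CPM in the ST libraries, 109.1 and 108.1 in ST_DCF, 137.2 and 134.3 in AL and 151.1 and 159.4 in AL_DCF. The 4 libraries with the AL stimulus were all above the 4 static libraries, and within each of these sets both libraries with DCF were above both without it. In condition means this was 98.2 ± 3.13 CPM in ST (SD, n = 2) and 108.6 ± 0.697 in ST_DCF, against 135.8 ± 2.04 in AL and 155.2 ± 5.90 in AL_DCF. HSD17B4, which hydrates and dehydrogenates very long and branched chains and bile acid precursors, rose in AL against ST by 0.47 ± 0.074 (adjusted p = 0.0013, edgeR's quasi-likelihood test). It rose in AL_DCF against ST by 0.66 ± 0.074 (adjusted p = 0.00011) and against ST_DCF by 0.52 ± 0.074 (adjusted p = 0.00055). Without each library in turn the adjusted p was at most 0.032, 0.0053 and 0.0035 in the 3 comparisons. The effect of DCF was not called, at 0.15 ± 0.074 in static culture (adjusted p = 0.54) and 0.19 ± 0.074 under the stimulus (adjusted p = 0.31), with an interaction of 0.048 ± 0.10 whose 95% interval was −0.18 to 0.28.

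The other peroxisomal genes were not called. EHHADH had 6.95 and 8.08 CPM in ST, 5.86 and 5.82 in ST_DCF, 6.82 and 5.97 in AL and 6.70 and 7.77 in AL_DCF, and a value of −0.36 ± 0.16 in ST_DCF against ST (adjusted p = 0.5). The branched-chain oxidase ACOX3 had 0.29 ± 0.15 in AL against ST (adjusted p = 0.2), and the peroxisomal thiolase ACAA1 had −0.33 ± 0.12 in AL_DCF against ST (adjusted p = 0.073), or 0.044 with the replicate block. Both AL_DCF libraries of ACAA1 were below the 6 others, at 34.1 and 34.95 CPM. SCP2, whose longer product is a thiolase for branched chains, had 0.12 ± 0.099 in AL against ST (adjusted p = 0.44). In AL_DCF against AL, ACAA1 had −0.33 ± 0.12 (adjusted p = 0.28). PHYH and HACL1, the hydroxylase and the lyase of α-oxidation, had 0.080 ± 0.13 and 0.21 ± 0.10 in AL against ST, with no call.

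CPT1A, SLC25A20 and ACADVL belong to the same pathways, are not among the 35 members, and were read alongside them whatever their values. CPT1A, the outer carnitine palmitoyltransferase that controls entry of long chains, had 36.1 and 42.8 CPM in ST, 51.8 and 46.1 in ST_DCF, 99.8 and 97.5 in AL and 86.96 and 78.5 in AL_DCF. It rose by 1.32 in AL against ST (adjusted p = 6.4e-06, edgeR's quasi-likelihood test), 1.07 in AL_DCF against ST (adjusted p = 3.2e-05) and 0.76 in AL_DCF against ST_DCF (adjusted p = 0.0003), more than any member. SLC25A20, the carnitine-acylcarnitine carrier of the inner membrane, had 12.8 and 14.3 CPM in ST and 23.5 and 21.8 in AL. It rose by 0.74 (adjusted p = 0.00088), 0.44 (0.018) and 0.47 (0.012) in the same 3 comparisons. ACADVL, the very-long-chain dehydrogenase, had 411.8 and 450.7 CPM in ST and 634.7 and 666.5 in AL, and rose by 0.59 (adjusted p = 0.00067), 0.37 (0.011) and 0.27 (0.045).

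Over the whole list of other fatty acid oxidation genes, 49 of 58 were tested, and 8 rose and 5 fell in AL against ST. The share that rose there was 16.3%, against 7.63% of all genes tested, and the share that fell was 10.2%, against 10.3%. In AL_DCF against ST 11 rose (22.4%, against 8.49%) and 6 fell (12.2%, against 9.83%), in AL_DCF against ST_DCF 8 rose (16.3%, against 9.38%) and 8 fell (16.3%, against 11.4%), and in ST_DCF against ST 0 were called by edgeR's quasi-likelihood test, with 8 higher and 1 lower at an unadjusted p under 0.05. The medians were 0.052, 0.039 and 0.030 on the log2 scale in the 3 AL comparisons. Among those that rose in AL was DBI, the acyl-CoA binding protein, by 0.53 (adjusted p = 0.0015), with 101.5 and 99.97 CPM in ST and 150.1 and 141.7 in AL. Among those that fell were the thioesterase ACOT11, from 11.8 and 10.6 to 6.15 and 5.57 CPM (−0.93, adjusted p = 0.0012), and HSD17B8, a dehydrogenase of mitochondrial fatty acid synthesis, from 8.27 and 7.99 to 3.49 and 4.23 CPM (−1.08, adjusted p = 0.0027). The very-long-chain acyl-CoA synthetase SLC27A2 fell from 18.96 and 18.2 to 13.3 and 14.4 CPM (−0.42, adjusted p = 0.025), and the acyl-CoA binding protein ACBD4 from 19.1 and 18.5 to 12.2 and 14.5 (−0.50, adjusted p = 0.031).

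**Figure D4:**
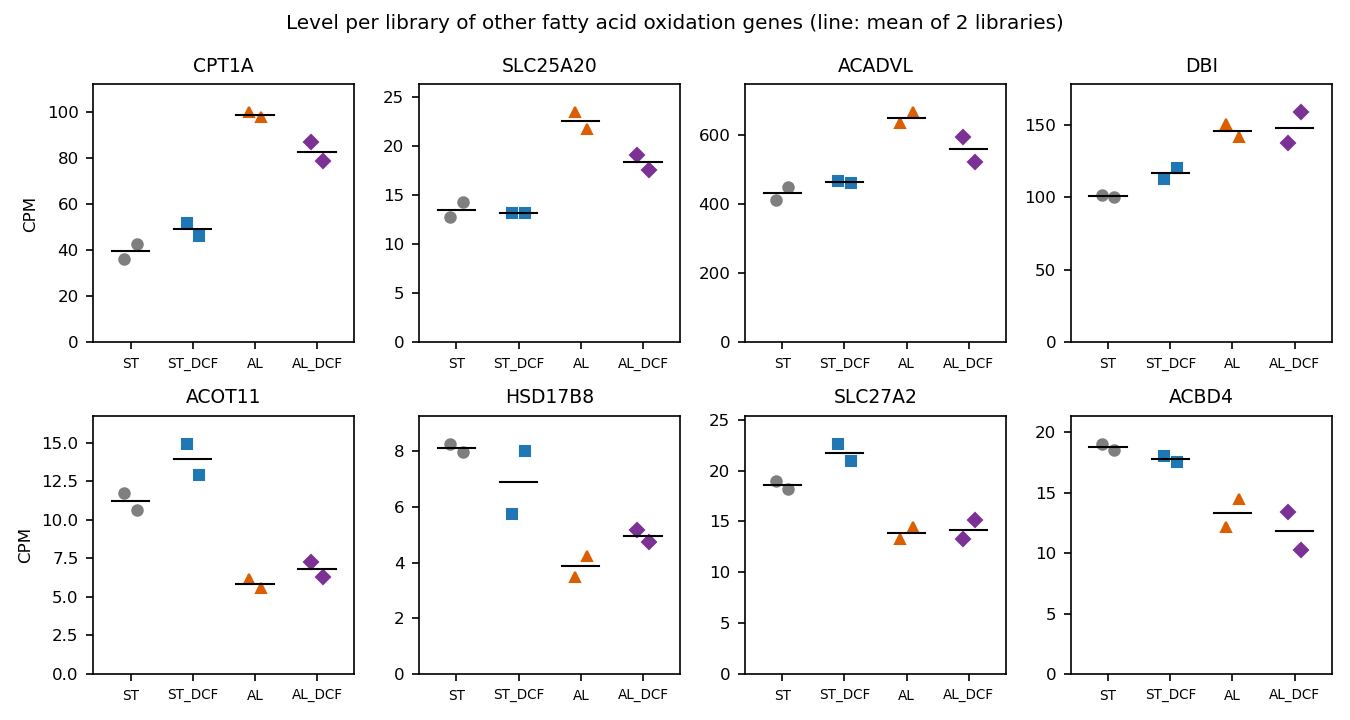
Level in CPM (linear axis from 0) of 8 genes from the list of other fatty acid oxidation genes, which are not among the 35. Each library has a point, and a line marks the mean of the 2 libraries. HSD17B8 of that list is a dehydrogenase of mitochondrial fatty acid synthesis. CPT1A, SLC25A20, ACADVL and DBI are higher in AL than in ST, and ACOT11, HSD17B8, SLC27A2 and ACBD4 are lower in both conditions with the AL stimulus.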

How the data were processed

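Libraries of 4 conditions with 2 each were read from the table the authors deposited. Read counts per gene were made by the authors with StringTie 2.1.3b from GRCh38 alignments (HISAT2 2.1.0, with Bowtie2 2.3.5.1 listed beside it) of reads checked with FastQC 0.11.7 and trimmed with Trimmomatic 0.38, and are deposited without normalization. FPKM and TPM values were deposited by the authors from the same tool, the former per transcript length and mapped reads and the latter scaled to a fixed total. The filter on low-quality transcripts and the use of strand in counting are not given in the sources used here. Every gene had at least 1 count in every library. The authors' fold changes, p-values and normalized log2 columns were not used.

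The count analysis used R 4.3.3 and edgeR 4.0.16. After filterByExpr (grouped by condition) and TMM scaling, a model of 4 conditions was fitted to the 8 libraries (4 residual and 7.5 prior degrees of freedom, biological coefficient of variation 9.48%) with edgeR's quasi-likelihood test. P-values were adjusted by the Benjamini-Hochberg method over all 17445 genes, and fold changes are given as log2 ± SE. Replicate numbers were not used as a block, since deviations of same-numbered libraries correlated between conditions at only −0.102 to 0.0985. At these depths, 32880479 to 46369412 counts, counting noise is greatest for CPT1C, followed by EHHADH, which had 198 to 355 counts per library. P-values set a difference against the spread between the 2 samples of a condition, pooled over the 4 conditions and shared across genes.

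Every member called in a comparison, and the 3 uncalled members with the highest mean TPM, are given per library. Of the other pathway genes, 3 are given that were chosen by name (1 more is not reported here), and up to 4 of their list per direction by adjusted p. The members and lists were chosen with earlier results of these data known. Alternatives were DESeq2 1.42.0, RLE factors, no filter, at least 10 counts, the compared libraries alone, a replicate block, limma 3.58.1 on log2(FPKM + 1) or log2(FPKM + 0.1), edgeR's exact test with an unadjusted p under 0.05 and a fold of 2, and leaving out each library. The exact test with an adjusted p was added after the values were seen. Scripts were tested on simulated counts. Promoter windows (250 bases before to 50 after the start) came from RefSeq, in which all 35 genes were matched and 29 had a window.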

Additional observations from a re-analysis of the deposited data

How the results depend on the processing

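No called value turned its sign. Over 3668 values of members under alternatives, 3361 kept their direction and side of the threshold, 104 calls were lost, 56 gained, and 147 uncalled values turned sign. For AL against ST, the count of members called higher, 5, was 11 with the compared libraries alone, 8 with DESeq2, 12 with the exact test at an adjusted p under 0.05 (chosen after seeing the data), 0 with the exact test at a fold of 2, and 2 to 8 without each library in turn; the count called lower, 0, was 1 with the compared libraries alone and with the exact test at an adjusted p under 0.05, and 0 to 1 without each library. For AL_DCF against ST, the 5 called higher were 3 without a filter, 0 with the fold of 2 and 1 to 7 without each library, and the 2 called lower were 1 without a filter, with the compared libraries alone and with DESeq2, 0 with limma on log2(FPKM + 1), on log2(FPKM + 0.1) and with the fold of 2, and 0 to 3 without each library. For AL_DCF against ST_DCF, the 6 called higher were 1 with the compared libraries alone, 3 with the exact test at an adjusted p under 0.05, 0 with the fold of 2 and 3 to 8 without each library, and the 1 called lower was 1 to 3 without each library (with the fold of 2 it was CPT1C in place of ACSL5). For ST_DCF against ST, the 0 called higher was 1 with DESeq2 and with the exact test at an adjusted p under 0.05, and 0 to 1 without each library. A fold of 2 exceeds the changes of all called members, and the cause of the other shifts was not tested. With the replicate block, 5 members were called higher in AL against ST, 4 in AL_DCF against ST and 5 in AL_DCF against ST_DCF, and ACSL3 and HADHA lost their calls, as did ACAD10, while ACAA1 gained a call as lower in AL_DCF against ST, which left 2 called lower there; the numbers do not pair the samples.

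With 2 libraries a condition, changes within the spread between replicates were not detectable, and CPT1C, with as few as 6 counts, has no usable precision.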

Other observations

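Lists of neighbouring pathways were read in the same fit, by counts and medians without a test of the list. Of all genes tested, 7.63% were called higher and 10.3% lower in AL against ST. Of 28 genes of the citrate cycle and pyruvate dehydrogenase, 3 rose in AL against ST (10.7%) and 0 fell (5 higher and 1 lower at an unadjusted p under 0.05), with a median log2 fold change of 0.085. The largest was PDK4, the kinase that shuts off pyruvate dehydrogenase, at 1.97 (adjusted p = 0.0054, edgeR's quasi-likelihood test). PDK4 was low, at 0.488 and 1.10 CPM in ST and 3.40 and 2.81 in AL. It was not called in AL_DCF against ST_DCF, at 0.40 (adjusted p = 0.51, same test). Of 21 genes of general mitochondrial content, such as import channels and chaperones, 0 were called in AL against ST (edgeR's test, with 1 higher at an unadjusted p under 0.05) and 2 rose in AL_DCF against ST (9.52%, against 8.49% of all genes). Of 17 peroxisome biogenesis genes with catalase, 1 rose and 1 fell in AL against ST (5.88% each): CAT, which breaks down the hydrogen peroxide made by peroxisomal oxidases, at 0.69 (adjusted p = 0.00012), and PEX26 at −0.33 (adjusted p = 0.014). Of 16 lipid droplet and lipolysis genes, 2 rose (12.5%) and 3 fell (18.8%) in AL against ST, among them ANGPTL4, an inhibitor of lipoprotein lipase, at 4.40 (adjusted p = 2.8e-06) and G0S2, an inhibitor of adipose triglyceride lipase, at −0.89 (adjusted p = 9.5e-05). Of 18 fatty acid synthesis genes, 3 rose (16.7%) and 1 fell (5.56%) in AL against ST, with the desaturase FADS2 at 0.45 (adjusted p = 0.0024) and malic enzyme ME1 at 0.78 (adjusted p = 0.012).

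Short motifs were counted on both strands in the 41 promoter windows of the members and in all 35116 windows of RefSeq (GRCh38.p14). AGGTCA, a nuclear receptor half-site, was in 2 of 41 (4.88%) and in 13.8% of all windows. The matches were in ACSL5, at −223 from the start, and in ACAD10, at −67. The direct repeat of AGGTCA with 1 base between its copies, known for PPAR, was in 0 of 41 and in 0.0228% of all windows, and TCAAGGTCA, known for ESRRA, in 0 of 41 and in 0.353%. The NRF1 palindrome was in 1 of 41 (2.44%) and in 1.24% of all, and the E-box CACGTG in 1 of 41 (2.44%) and in 7.26% of all. These are matches of letters in a short window, and factor binding was not measured.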
